A study of Mus musculus with 10 samples.

Results

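The endothelial marker genes described here are the 10 genes Pecam1, Cdh5, Esam, Kdr, Flt1, Tek, Tie1, Eng, Emcn and Vwf, taken by their symbols from the 23337 genes of the count files. They were taken because each is in common use as a marker of endothelium, and all 10 had counts in every library. The study asked how an enhancer in intron 1 of Ttn, named E0, acts in striated muscle, and Bulk RNA-Seq was performed on left ventricle (LV) and skeletal muscle (SkM) from the same mice. There were 2 WT mice and 3 E0del/+ mice, which carry a heterozygous germline deletion of E0, and each mouse gave 1 LV and 1 SkM library, 10 in all. All were untreated hybrids from C57BL/6 E0del/+ mice crossed to 129SvEv WT mice. The labels give no age, and the 17 weeks that the study states for LV Bulk RNA-Seq refers to a set of 5 mice per genotype. The deletion is present in every cell, endothelial cells included, and E0del is 1 of 3 independently made lines. Mice of both sexes were used in the study. The 10 libraries held from 11010021 to 17484873 counts in genes (median 14050602).

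Endothelial cells line every blood vessel, and in heart and muscle most of them belong to the capillaries that run between the myocytes. They hold together through junctional adhesion proteins, take growth and survival signals from VEGF and angiopoietins through receptor tyrosine kinases, and release factors that control clotting. In RNA from a whole tissue, the counts of their marker genes stand for the vascular share of that tissue's RNA, and fewer endothelial cells cannot be told apart from less marker RNA per cell.

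Several libraries stood apart and bear on every value below. The WT LV replicate 2 library held a summed 39096 CPM (a count scaled by its library's total) of 8 fast skeletal fibre genes, against 155 to 178 CPM in the other 4 LVs and 157791 to 168695 CPM in SkM. The cardiomyocyte genes Myh6, Tnni3, Mybpc3 and Ryr2 summed to 47905 CPM in that library and to between 55744 and 69035 CPM in the other LVs. The WT SkM replicate 1 library had 397 CPM of Xist together with 21.6 CPM of 4 Y-linked genes, where the other Xist-expressing SkM libraries had 0.861 and 0.800 CPM of the latter. The E0del/+ LV replicate 2 library, the highest LV for all 10 members, had 806 CPM of Xist and 3.27 CPM of the Y-linked genes, against 0.461 and 0.586 CPM in the other Xist-expressing LVs. WT replicate 2 and E0del/+ replicate 3 had less than 5 CPM of Xist in both tissues. The SkM libraries of batch 1 (E0del/+ and WT replicate 1), which had the highest member shares in SkM, had 80.1 and 39.1 CPM of the leukocyte gene Ptprc and 14.9 and 6.33 CPM of the B cell gene Cd79a, where the other SkM libraries had no more than 5.73 and 0.400 CPM. Of the other leukocyte genes listed, Cd3e was at 7.88 and 7.05 CPM in these 2 libraries and Cd68 at 0.984 and 1.15 CPM. The other SkM libraries had no more than 4.33 and 0.933 CPM of them. Adgre1 (0.492 and 1.08 CPM), C1qa (1.35 and 2.66 CPM), Csf1r (4.68 and 7.92 CPM) and Lyz2 (22.7 and 26.8 CPM) overlapped the other SkM libraries. Ets1, of the endothelial transcription factors, was at 48.9 and 35.2 CPM in these 2 libraries and at 10.8 to 19.0 CPM in the other SkM libraries. Ttn itself was at 7959 and 9344 CPM in WT LVs and at 7737, 5560 and 6597 CPM in E0del/+ LVs. In SkM it was at 24205 and 15856 CPM in WT and at 20092, 18854 and 13585 CPM in E0del/+. Results are therefore given with and without single mice where they rest on them.

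Together the 10 genes took a small share of the counts, which was larger in LV in every mouse. In LV their share was 0.248% in WT replicate 1 (95% exact binomial interval 0.245 to 0.251) and 0.174% in WT replicate 2 (0.172 to 0.177). In E0del/+ LVs it was 0.235%, 0.347% and 0.197% in replicates 1, 2 and 3. The E0del/+ replicate 2 library was the highest LV and the WT replicate 2 library, with the skeletal muscle counts, the lowest. In SkM the share was 0.0415% in WT replicate 1 (0.0404 to 0.0426) and 0.0197% in WT replicate 2 (0.0191 to 0.0204). The E0del/+ SkM libraries had 0.0409%, 0.0391% and 0.0345%. WT SkM replicate 2 was the lowest, and the other 4 SkM libraries lay close together. The intervals cover counting error only and were narrow beside the spread between mice. The coefficient of variation of the summed CPM was 27.7% over the 5 LVs and 25.7% over the 5 SkM libraries, and within E0del/+ mice it was 30.0% in LV and 8.66% in SkM. In both tissues the mice with little Xist, WT replicate 2 and E0del/+ replicate 3, had the lowest 2 shares, and whether sex or the individual mouse goes with this cannot be told apart in 5 animals. The part of the skeletal muscle counts in the low share of WT LV replicate 2 was not tested.

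**Figure D1:**
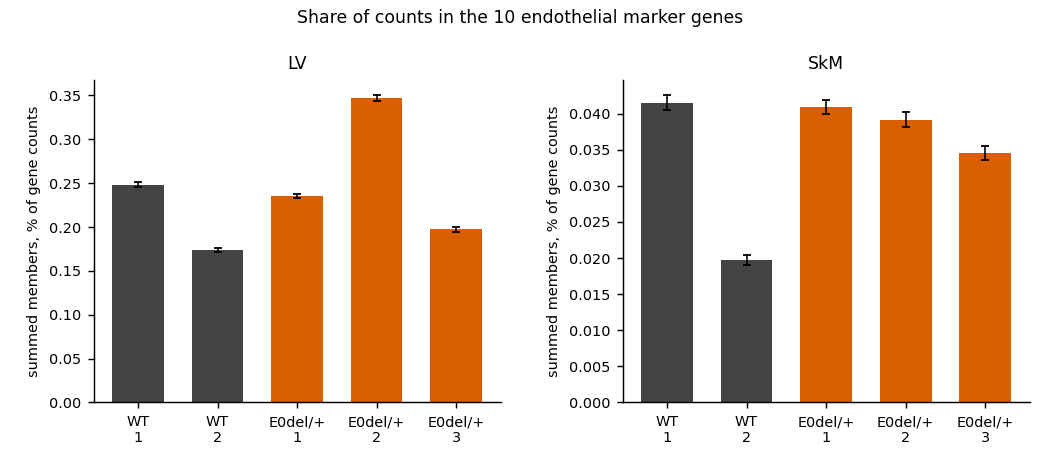
Summed counts of the 10 endothelial marker genes as a percent of all gene counts in each library, LV on the left and SkM on the right, on different scales, with 95% exact binomial intervals as error bars. WT replicate 2 is the lowest bar in both tissues, at 0.174% and 0.0197%.

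Within mice the share was 5.71 to 8.87 times as high in LV as in SkM, with a median of 5.98 over the 5 mice. E0del/+ replicate 2 (8.87) and WT replicate 2 (8.82) had the highest ratios, and the other 3 mice were between 5.71 and 5.98. Much of SkM RNA comes from a few genes, since the 10 most abundant genes of a library took 27.2% to 29.5% of SkM counts and 12.5% to 14.5% of LV counts. After scaling by TMM (trimmed mean of M values), which allows for such an imbalance, the median ratio was 4.20. Per length, as TPM (counts per length, scaled to the library), it was 5.91, with WT replicate 2 highest at 8.89 and E0del/+ replicate 2 at 8.09.

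The first group of members holds endothelial cells to each other. Pecam1, an adhesion molecule at cell borders that platelets and leukocytes also carry, lies on chromosome 11 of mm10 from 106654218 to 106715281. Its LV level was 231 and 155 CPM in WT replicates 1 and 2 and 211, 328 and 193 CPM in E0del/+ replicates 1, 2 and 3. Its SkM level was 48.5 and 22.2 CPM in WT and 51.6, 45.8 and 39.5 CPM in E0del/+. The 2 tissues did not overlap, and the 2 genotypes overlapped in both. Cdh5 encodes VE-cadherin, the cadherin of endothelial adherens junctions, on chromosome 8 from 104101625 to 104144502. Cdh5 was at 444 and 314 CPM in WT LVs and at 403, 588 and 366 CPM in E0del/+ LVs. Its SkM values were 79.2 and 38.5 CPM in WT and 81.8, 74.4 and 65.6 CPM in E0del/+. With WT SkM replicate 2 set aside, the other 4 SkM libraries differed little. Esam, an immunoglobulin-type adhesion molecule of endothelial tight junctions, lies on chromosome 9 from 37528089 to 37538319. Esam was at 128 and 95 CPM in WT LVs and at 116, 181 and 122 CPM in E0del/+ LVs. SkM levels of Esam were 30.8 and 18.5 CPM in WT and 28.1, 23.0 and 26.5 CPM in E0del/+. Its ratio of LV to SkM in E0del/+ replicate 2 was 7.87 and stood above those of the other mice, which were between 4.13 and 5.13.

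Kdr and Flt1 are the VEGF receptors of blood endothelium. Kdr, the main signalling receptor for VEGF-A, lies on chromosome 5 from 75933270 to 75978428. Kdr was at 389 and 264 CPM in WT LVs and at 362, 542 and 298 CPM in E0del/+ LVs. In SkM it had 37.8 and 18.5 CPM in WT and 44.1, 42.6 and 31.0 CPM in E0del/+. Of all members Kdr had the widest gap between the tissues, with a median ratio of 10.3 within mice and a range of 8.21 to 14.3. Flt1, which binds VEGF-A, VEGF-B and PlGF and limits signalling through Kdr, lies on the same chromosome from 147562196 to 147725988. Flt1 was at 217 and 176 CPM in WT LVs and at 188, 270 and 185 CPM in E0del/+ LVs. Its SkM values were 42.3 and 21.3 CPM in WT and 41.9, 40.7 and 31.7 CPM in E0del/+. The ratio of Flt1 between tissues was lower than that of Kdr, with a median of 5.83. Set against each other per length, Kdr had 1.73 to 2.31 times the TPM of Flt1 in the 5 LVs and 1.00 to 1.21 times in the 5 SkM libraries. Those 2 ranges do not overlap and need no scaling between libraries, but the pair was singled out after the values were seen.

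Tek and Tie1 form the TIE family. Tek (TIE2) is the angiopoietin receptor and lies on chromosome 4 from 94739300 to 94874939. Tek was at 159 and 124 CPM in WT LVs and at 149, 239 and 124 CPM in E0del/+ LVs. In SkM it was at 27.4 and 12.8 CPM in WT and at 22.6, 25.5 and 24.1 CPM in E0del/+. Tie1, a relative of Tek that binds no angiopoietin by itself and modulates it, lies on chromosome 4 from 118471191 to 118489849. Tie1 was at 277 and 199 CPM in WT LVs and at 261, 397 and 227 CPM in E0del/+ LVs. Its SkM values were 38.3 and 18.7 CPM in WT and 35.7, 35.1 and 30.9 CPM in E0del/+. Both genes thus showed the pattern of the others, with E0del/+ LV replicate 2 highest in LV and WT replicate 2 lowest in SkM. Per length, Tie1 had 1.92 to 2.19 times the TPM of Tek in LV and 1.54 to 1.89 times in SkM.

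The remaining 3 members have separate roles. Eng (endoglin), a co-receptor for BMP9 and BMP10, lies on chromosome 2 from 32646595 to 32682669. Its exons in the files share 61 bp with those of Fpgs, and reads in that stretch cannot be assigned to 1 of the genes without strand. Eng was at 426 and 277 CPM in WT LVs and at 440, 632 and 314 CPM in E0del/+ LVs. In SkM its values were 51.8 and 27.0 CPM in WT and 54.1, 49.3 and 45.1 CPM in E0del/+. No other member overlaps an exon of another gene in the files. Emcn (endomucin), a sialomucin on the surface of capillary and venous endothelium, lies on chromosome 3 from 137341078 to 137431069 and had the fewest counts. Emcn was at 52.6 and 34.4 CPM in WT LVs and at 42.6, 71.9 and 40.0 CPM in E0del/+ LVs. Its SkM values were 7.77 and 6.81 CPM in WT and 8.0, 8.13 and 6.83 CPM in E0del/+, from 97 to 130 counts a library. Emcn varied least over the SkM libraries (coefficient of variation 8.57%), and WT replicate 2 was not apart from the others for it. Vwf encodes von Willebrand factor, the clotting protein that endothelial cells and megakaryocytes store and secrete, on chromosome 6 from 125552963 to 125686677. Vwf was at 157 and 104 CPM in WT LVs and at 182, 222 and 103 CPM in E0del/+ LVs. In SkM it was at 51.3 and 13.2 CPM in WT and at 41.5, 47.0 and 44.1 CPM in E0del/+. Its ratio of LV to SkM ran from 2.33 to 7.85, the widest relative range of the members, with the extremes in E0del/+ replicate 3 and WT replicate 2.

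The 10 members lie on 8 chromosomes. To show the start regions of genes of different receptor classes, the RefSeq promoter windows (build GRCm38.p6, from 250 bases before to 50 bases after the gene's start) are given for Kdr, Flt1, Tie1 and Eng. Of the 10 members, 6 had an entry: these 4, Tek and Emcn. Capitals mark AGGAAG on either strand (CTTCCT on the opposite one), a core that ETS factors such as Erg and Fli1 can bind.
Kdr (chr5:75978406-75978705, minus strand): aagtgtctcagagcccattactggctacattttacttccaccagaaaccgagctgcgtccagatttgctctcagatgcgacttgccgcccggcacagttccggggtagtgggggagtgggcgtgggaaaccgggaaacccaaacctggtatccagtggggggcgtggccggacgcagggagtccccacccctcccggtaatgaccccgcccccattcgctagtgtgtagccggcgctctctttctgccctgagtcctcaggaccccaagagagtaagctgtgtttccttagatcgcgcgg
Flt1 (chr5:147725962-147726261, minus strand): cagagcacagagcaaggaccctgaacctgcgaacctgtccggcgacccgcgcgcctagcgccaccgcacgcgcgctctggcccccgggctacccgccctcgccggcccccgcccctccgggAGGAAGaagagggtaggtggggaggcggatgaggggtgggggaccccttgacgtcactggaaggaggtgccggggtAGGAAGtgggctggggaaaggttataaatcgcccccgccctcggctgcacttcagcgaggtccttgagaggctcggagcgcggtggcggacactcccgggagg
Tie1 (chr4:118489800-118490099, minus strand): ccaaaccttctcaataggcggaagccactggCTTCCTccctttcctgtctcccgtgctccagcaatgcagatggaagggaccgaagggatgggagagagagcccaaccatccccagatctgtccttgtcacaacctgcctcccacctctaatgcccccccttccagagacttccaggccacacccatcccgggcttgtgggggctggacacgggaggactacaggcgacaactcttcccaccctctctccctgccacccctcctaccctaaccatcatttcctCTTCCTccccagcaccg
Eng (chr2:32646345-32646644, plus strand): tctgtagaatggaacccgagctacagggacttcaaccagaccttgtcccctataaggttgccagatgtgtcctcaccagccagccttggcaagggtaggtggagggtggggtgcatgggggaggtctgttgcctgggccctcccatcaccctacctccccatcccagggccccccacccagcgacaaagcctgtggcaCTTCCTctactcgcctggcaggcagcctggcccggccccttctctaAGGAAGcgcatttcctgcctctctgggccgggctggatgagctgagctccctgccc
These exact letters, the only form of the ETS core searched for, occur 2 times each in the windows of Flt1, Tie1, Eng and Emcn. They do not occur in those of Kdr and Tek. Of all 32851 promoter windows of 300 bases, 35.4% hold them, so 4 of 6 is a description of these windows and not a site. GATAAG (or CTTATC), a core of GATA factors, was in the window of Tek and in 7.44% of all windows. TATAAA (or TTTATA) was in that of Flt1 and in 13.6% of all. Their base composition differed widely, from 41% G and C in Emcn to 70.7% in Flt1, which is higher than in 91.4% of all windows. The Flt1 window has 29 CpG, the Kdr window 19, and the windows of Tek and Emcn 3 and 2.

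**Figure D2:**
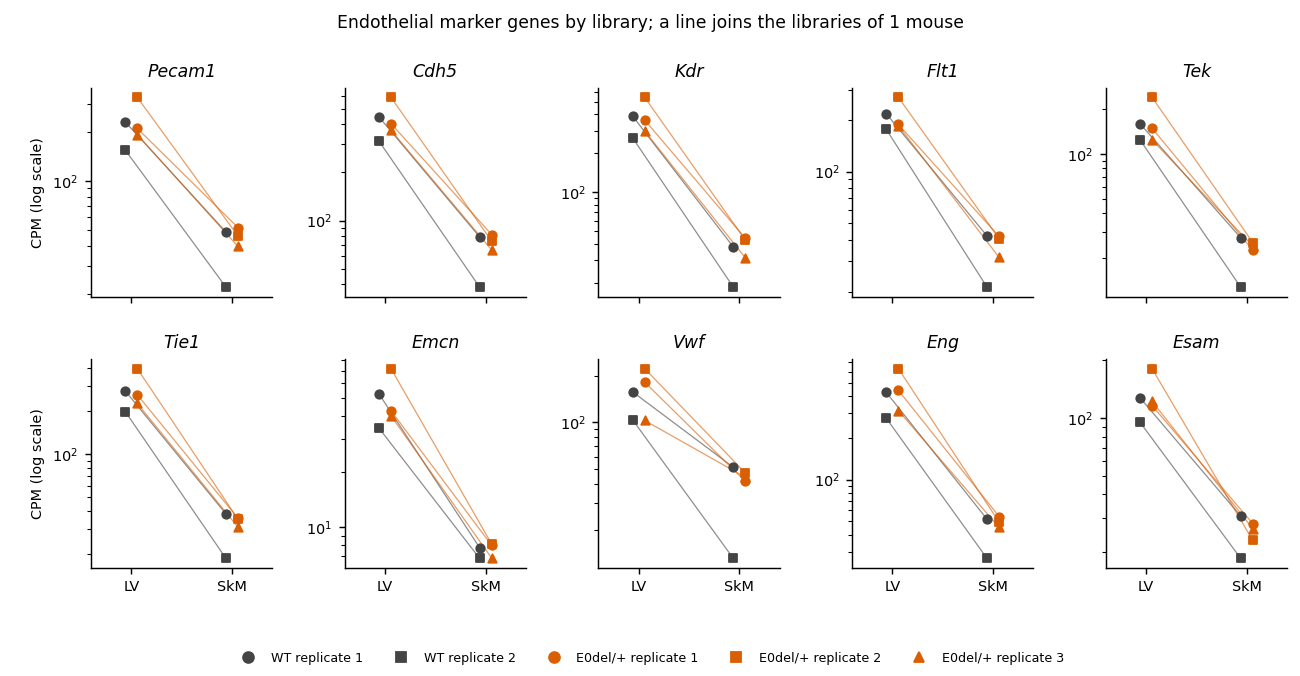
Level of each endothelial marker gene in CPM on a log scale, with LV and SkM of a mouse joined by a line, WT in grey and E0del/+ in orange and a symbol for each replicate number. Every line falls from LV to SkM, and WT replicate 2 (grey square) is lowest in SkM for all 10 genes.

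Per length, Eng had the highest mean in LV, at 304 ± 89.5 TPM (mean ± SD, n = 5), and Cdh5 was at 276 ± 57.6. The 2 lay within each other's spread, and Cdh5 was above Eng in WT replicate 2 (211 and 208 TPM) and in E0del/+ replicate 3 (241 and 231 TPM). Tie1 (182 ± 43.6), Esam (180 ± 37.2), Kdr (177 ± 44.7) and Pecam1 (176 ± 43.8) came next and did not differ beyond their spread. Tek, Flt1 and Emcn were at 88.8 ± 22.6, 85.9 ± 12.8 and 85.9 ± 22.9 TPM, and Vwf was lowest at 45.3 ± 13.9. In SkM the order was different. Cdh5 led with 45.7 ± 13.3 TPM, ahead of Esam (36.6 ± 7.94), Eng (34.1 ± 9.25) and Pecam1 (33.8 ± 10.6). It was above Eng and Pecam1 in all 5 SkM libraries and above Esam in 4, all but WT replicate 2. Tie1 followed at 21.9 ± 6.05, then Kdr (17.2 ± 5.71), Flt1 (15.2 ± 4.40), Emcn (13.7 ± 1.74), Tek (13 ± 3.61) and Vwf (12 ± 4.81). By mean TPM the members ranked between 424 (Eng) and 3620 (Vwf) of all genes in LV, and between 2637 (Cdh5) and 6698 (Vwf) in SkM.

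The make-up of the summed share differed between the tissues, which the part of each gene in the sum of the 10 shows without any scaling between libraries. Kdr made up 15.1% to 15.7% of the summed counts in the 5 LVs and 8.99% to 10.9% in the 5 SkM libraries. Eng made up 15.9% to 18.7% in LV and 12.5% to 13.7% in SkM, and Tie1 11.1% to 11.5% and 8.72% to 9.47%. These 3 had no overlap between the tissues and took a larger part in LV. Pecam1 took 8.91% to 9.80% in LV and 11.2% to 12.6% in SkM. Cdh5 took 16.9% to 18.6% and 19.0% to 20%. These 2 junction genes took a larger part in SkM, again with no overlap. Vwf made up 5.21% to 7.72% in LV and 6.69% to 12.8% in SkM. Its part overlapped between the tissues only through WT SkM replicate 2, whose 6.69% was below the 10.1% to 12.8% of the other SkM libraries. Esam, Flt1, Tek and Emcn also overlapped. WT SkM replicate 2 had the highest part of Emcn (3.45%) and of Esam (9.38%).

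**Figure D3:**
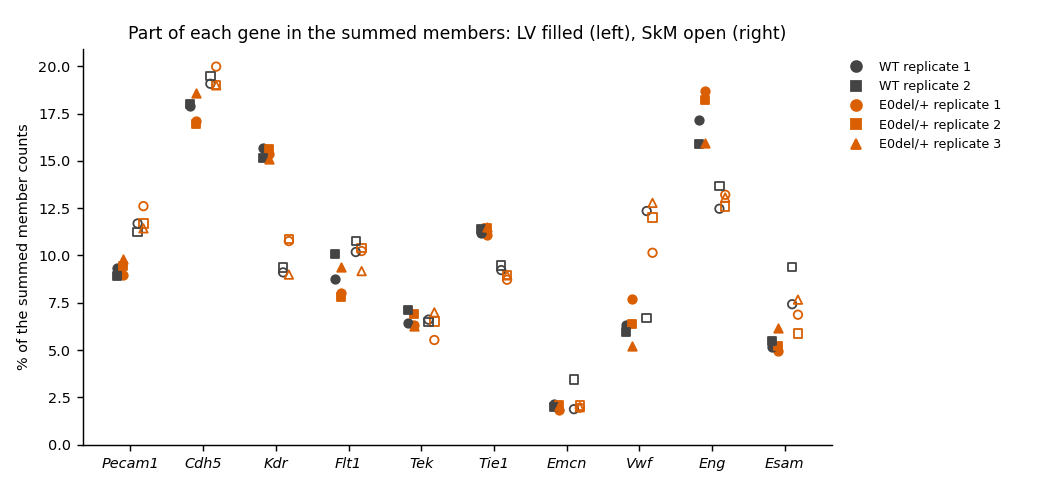
Part of each gene in the summed counts of the 10 endothelial marker genes, in percent, with LV filled and SkM open, WT in grey and E0del/+ in orange and a symbol for each replicate. Kdr, Tie1 and Eng sit higher in LV, Pecam1 and Cdh5 sit higher in SkM, and the WT SkM replicate 2 square stands apart for Emcn and Vwf.

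LV was compared with SkM within mice by edgeR's quasi-likelihood test with the mouse as a block, and p-values were adjusted by Benjamini-Hochberg over all genes tested. All 10 members were higher in LV past an adjusted p of 0.05. Of the 13283 genes tested, 32.1% were called higher in LV and 30.0% lower, so the count of members stands against a background in which most genes differ. The median log2 fold change of the members was 1.98, with a median of 0.02 over all genes tested. Kdr had the largest, 2.77 (SE 0.13, edgeR adjusted p = 5.46e-06), at a percentile of 95.5 among the genes tested. Eng followed with 2.52 (SE 0.13), Tie1 with 2.44 (SE 0.11) and Tek with 2.16 (SE 0.13). Cdh5 (1.99), Emcn (1.98) and Flt1 (1.90) had SEs of 0.13 each. Pecam1 had 1.78 (SE 0.12), Esam 1.66 (SE 0.11) and Vwf the smallest, 1.36 (SE 0.22, edgeR adjusted p = 9.51e-04). The gap between Kdr and Flt1 and that between Kdr and Vwf were wider than their SEs, whereas Cdh5, Emcn and Flt1 lay within 1 SE of each other. By CPM each member was higher in LV in 5 of 5 mice. With total counts, the scale of CPM, 7881 of the 13283 genes tested were called higher in LV. The share of all genes higher in LV in 5 of 5 mice was not counted.

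The size of these values depends on the scaling, and their direction did not. With total counts in place of TMM the median of all genes moved to 0.68 and that of the members to 2.65, and the calls split into 7881 higher and 1590 lower in LV, against 4269 and 3986 with TMM. All 10 members were called in every fit that left out 1 mouse. Without WT replicate 2 the members' median was 1.99 and that of Vwf alone was 1.15, and in the 3 E0del/+ mice alone, a fit added after the data were seen, the median was 1.94 with a range of 1.16 to 2.62.

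**Figure D4:**
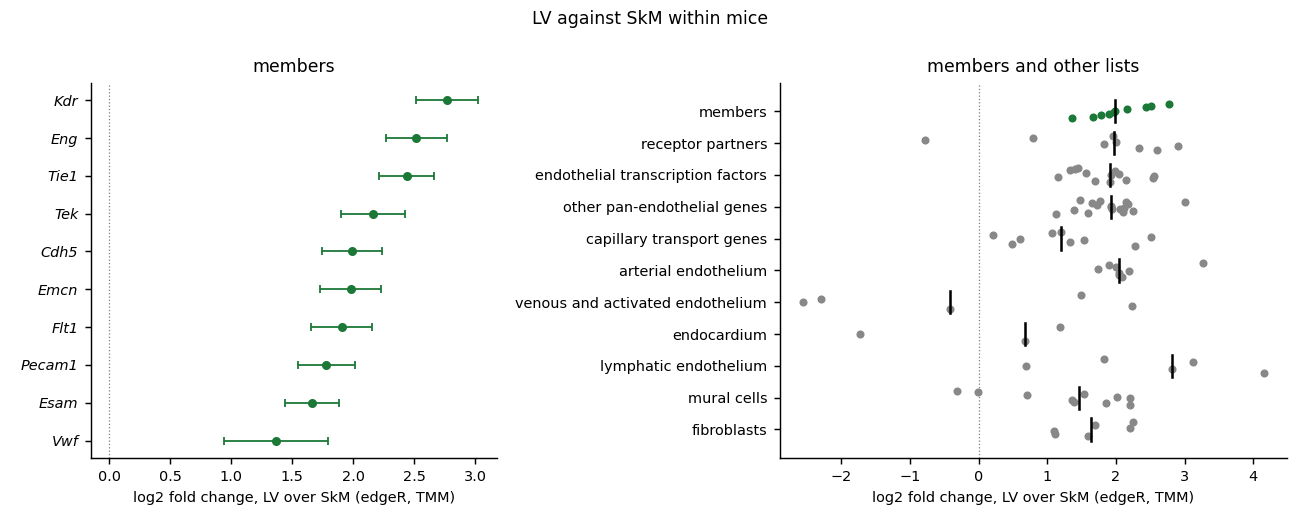
Left, log2 fold change of each endothelial marker gene in LV over SkM (edgeR, TMM scaling), with bars of 1.96 SE. Right, the same values for the members (green) and the genes of other lists (grey), with a black line at each list's median, which is 1.98 for the members.

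The genes that act with the members were counted in the same fit. Of 11 ligands 8 were tested, and 7 were higher in LV and 1 lower. The most abundant were Vegfb (log2 fold change 0.88, SE 0.14), Vegfa (0.57, SE 0.16) and Tgfb1 (2.19, SE 0.25), and Vegfd was the lower one (-1.14, SE 0.18). Their median of 0.83 was below that of the members. Of 8 receptor partners 7 were higher in LV, with a median of 1.98. Nrp1, a co-receptor of Kdr, had 2.33 (SE 0.14), the semaphorin receptor Plxnd1 had 1.95 (SE 0.13) and Ptprb, a phosphatase that acts on Tek, had 1.83 (SE 0.13). Bmpr2, which many cells express, was lower in LV (-0.78, SE 0.29, edgeR adjusted p = 0.0432), but its CPM was higher in LV in 2 of 5 mice, WT replicate 2 and E0del/+ replicate 3.

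Transcription factors, further pan-endothelial genes and arterial genes were all higher in LV. All 13 endothelial transcription factors were higher in LV (median 1.91), with Epas1, encoding HIF-2 alpha, at 1.45 (SE 0.14), the flow-responsive Klf2 at 1.56 (SE 0.17) and Sox18 at 2.56 (SE 0.18). All 17 other pan-endothelial genes were higher too (median 1.93). Egfl7, a secreted vascular protein, had 1.59 (SE 0.13), the receptor Adgrf5 1.93 (SE 0.12), and Podxl, a surface sialomucin, 3.00 (SE 0.12). All 8 arterial genes were higher (median 2.04), among them the Notch ligand Dll4 (2.19, SE 0.15), Sema3g (2.00, SE 0.17) and Efnb2 (2.04, SE 0.10). Capillary transport genes were less uniform, as 7 of 9 were higher with a median of 1.20. The fatty acid transporter Cd36, which myocytes also express, had 2.27 (SE 0.21) and the water channel Aqp1 0.60 (SE 0.15). Fabp4 had 0.48 with an SE of 0.50 and did not pass the threshold (edgeR adjusted p = 0.428), nor did Rgcc (0.20, SE 0.26). In SkM, Fabp4 was at 132 CPM in WT replicate 1 and 179 CPM in E0del/+ replicate 3, where adipocyte genes summed to 1122 and 1183 CPM. It was at 20.7 to 58.0 CPM in the other SkM libraries, where they summed to 8.69 to 281 CPM. Rgcc did not follow them, with its highest SkM level, 47.0 CPM, in WT replicate 2. The part of adipocyte RNA in these values was not tested.

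Of 6 genes of venous and activated endothelium 5 were tested, and 2 were higher and 3 lower in LV. Ephb4 had 2.24 (SE 0.16) and Vcam1 1.49 (SE 0.23). Ackr1, a chemokine receptor of venules, had -2.56 (SE 0.35) and the adhesion molecule Selp -2.30 (SE 0.48), both at less than 5 CPM in every library. Nr2f2, a venous transcription factor, had -0.42 (SE 0.13), which turned to 0.24 with total counts and did not pass the threshold in the E0del/+ mice alone. Of 4 endocardial genes 3 were tested, with Cytl1 at 1.18 (SE 0.33), Npr3 at 0.68 (SE 0.55, not past the threshold) and Nfatc1 lower at -1.74 (SE 0.11), a gene that muscle fibres also express. Of 6 lymphatic genes 5 were tested and 4 were higher in LV, with Prox1, which cardiomyocytes also express, at 4.16 (SE 0.46), Lyve1 at 2.81 (SE 0.37) and Mmrn1 at 3.13 (SE 0.47). Ccl21a had 0 counts in every library. Of 10 mural genes 8 were higher in LV (median 1.46), with the pericyte gene Rgs5 at 1.85 (SE 0.17) and Acta2 at 1.53 (SE 0.19), while Tagln was at -0.00 (SE 0.31) and Cnn1 at -0.31 (SE 0.59).

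Markers of other cells were read beside these values, and their part in the result was not tested. All 6 fibroblast genes were higher in LV (median 1.64), the most abundant being Dcn. Leukocyte genes were higher in 5 of 7 and lower in 1, the T cell gene Cd3e. Of 7 platelet genes 3 were tested, with Pf4 higher and Gp1ba lower, and the CPM of Gp1ba was higher in LV in 5 of 5 mice, so its direction depends on the scaling. Gp9, Gp1bb, Ppbp and Treml1 were each under 1 CPM in every library. Both red cell genes tested were higher in LV, Hbb-bs (1.08, SE 0.39) and the less abundant Alas2 (1.11, SE 0.36), whereas Hba-a1 and Hba-a2 had 0 counts. The 5 adipocyte genes were lower in LV by log2 values between -4.13 and -5.02 (Cfd, the most abundant), with SEs of 1.75 to 2.11, and 0 passed the adjusted threshold in edgeR while 3 had an unadjusted p under 0.05. All 4 cardiomyocyte and all 8 fast fibre genes passed it, in opposite directions.

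The members varied together between libraries of a tissue. On log2 CPM with TMM factors, less the mean of the tissue, the 45 pairs of members had Pearson correlations between 0.317 and 0.997 over 10 libraries, with a median of 0.885. Without the libraries of WT replicate 2 the median was 0.829 over 8. Libraries of 1 mouse share an animal, so these are descriptions. Tie1 followed the mean of the other 9 most closely (0.997), then Cdh5 (0.985) and Pecam1 (0.981). Esam (0.790) and Emcn (0.554) followed it least, and without WT replicate 2 it was 0.936 for Emcn, 0.528 for Esam and 0.669 for Vwf (0.884 with it). Vwf had the largest within-tissue SD, 0.55 on the log2 scale, against 0.19 for Esam and between 0.22 and 0.35 for the others. In SkM the spread of Vwf rested on WT SkM replicate 2, without which its coefficient of variation there was 9.06% and not 38.3%. Those of the other members were then between 7.66% and 15.1%. In LV Vwf also had the largest coefficient of variation, 33.5% (30.1% without WT replicate 2), beside 33.2% (29.1%) for Eng. On the log2 scale less the tissue mean, the members' mean was lowest in WT replicate 2, at -0.31 in LV and -0.57 in SkM. It was highest in E0del/+ replicate 2, at 0.40 in LV and 0.29 in SkM.

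Other lists followed the members to different degrees over the same 10 libraries. The mean of the endothelial transcription factors had a correlation of 0.964 with that of the members, the arterial genes 0.963 and the other pan-endothelial genes 0.961. Without WT replicate 2 these were 0.920, 0.918 and 0.873 over 8 libraries. Mural cells had 0.754, leukocytes 0.819 and fibroblasts 0.602, and these were 0.390, 0.187 and 0.270 without that mouse. The capillary transport genes went from 0.615 to 0.136, and lymphatic endothelium from 0.677 to -0.193. Venous and activated endothelium went from 0.820 to 0.608 and endocardium from 0.577 to 0.243. Endothelial lists were thus among those that rested on WT replicate 2 and among those that did not.

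Outside all lists, 8799 genes had a mean of at least 5 CPM in both tissues, and those whose values were most like the members' mean were Fgd5 (r = 0.978 over 10 libraries), Plscr4 (0.976), Thbd (0.976), Kctd10 (0.962) and Cxcl12 (0.958). Without WT replicate 2 the values were 0.961, 0.917, 0.956, 0.859 and 0.883 over 8. Fgd5 was at 76.9 to 169 CPM in LV and 9.55 to 19.5 CPM in SkM. Thbd, which encodes the anticoagulant receptor thrombomodulin, was at 66.1 to 163 CPM and 5.49 to 21.2 CPM. Cxcl12, a chemokine, was at 269 to 584 CPM in LV and 26.1 to 62.5 CPM in SkM.

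In LV, E0del/+ was compared with WT to see whether loss of 1 copy of E0 went with another level of the members. The mean of the summed members was 2111 CPM in WT LVs (1741 and 2481, n = 2) and 2599 ± 779 CPM in E0del/+ LVs (SD, n = 3). The genotypes overlapped for the sum and for each gene. The share of all genes with such an overlap was not counted, so this only describes the members. Of the 10 members 0 passed an adjusted p of 0.05 in edgeR, with a background of 0% of 13420 genes, and 0 had an unadjusted p under 0.05, against 4.20% of all genes (564). The log2 fold changes of the members were between 0.05 (Flt1, SE 0.19) and 0.32 (Eng, SE 0.27), with a median of 0.23 beside -0.01 for all genes. All 10 were above 0, and the lowest unadjusted edgeR p was 0.2402 (Esam). DESeq2 called 12 genes and none of the members.

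That common sign depended on single libraries. Without WT replicate 2 the median of the members was 0.07 and Flt1 and Emcn were below 0, and without E0del/+ replicate 2 it was 0.04 with Flt1, Tek and Emcn below 0. Within batch 1 the E0del/+ LV had 0.949 times the summed CPM of the WT LV, and within batch 2 it had 1.99 times, where the WT library is the one with skeletal muscle counts. With the batch as a block, 5 genes were called (Ddx3y, Eif2s3y, Kdm5d, Uty and Mstn, named after their values were seen) and 0 members, whose median was 0.32. Without WT replicate 1, which leaves that library as the lone WT and assumes that it varies like the others, 578 genes were called, 574 of them lower in E0del/+, and again 0 members, with a median of 0.42. Without E0del/+ replicate 3 the median was 0.34, and in these last 3 fits all 10 members were above 0.

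Of the other vascular lists in LV, 0 genes passed the adjusted threshold. All 13 endothelial transcription factors (median 0.22), all 17 other pan-endothelial genes (0.23) and all 9 capillary transport genes (0.27) were above 0, as were 48.3% of all genes tested. So were 6 of 8 arterial, 7 of 8 receptor partner, 6 of 8 ligand, 3 of 4 venous and activated, 2 of 3 endocardial, 2 of 10 mural and 0 of 5 lymphatic genes. Outside the vessels, 6 of 6 leukocyte (median 0.19), 4 of 4 cardiomyocyte (0.16), 2 of 2 red cell (0.18) and 2 of 6 fibroblast genes (-0.18) were above 0, so the sign was not limited to endothelial genes. Of the adipocyte genes 0 of 4 (median -3.39) and of the fast fibre genes 0 of 8 (-6.86) were above 0, all 12 with an unadjusted p under 0.05, and both lists were highest in the WT LV replicate 2 library. Sox18 alone of the vascular genes had an unadjusted p under 0.05 (log2 fold change 0.68, SE 0.28, edgeR adjusted p = 0.997).

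In SkM the mean of the summed members was 306 CPM in WT (197 and 415, n = 2) and 382 ± 33.1 CPM in E0del/+ (n = 3), and the WT values lay on either side of the E0del/+ ones. Of the members 0 passed the adjusted threshold in edgeR, where 0% of 13154 genes did, and 0 had an unadjusted p under 0.05, against 0.867% of all genes (114). DESeq2 called 0 genes. The log2 fold changes were between 0.08 (Emcn, SE 0.21) and 0.54 (Vwf, SE 0.47), with a median of 0.34 beside -0.01 for all genes, and Kdr had 0.52 (SE 0.28). Again all 10 were above 0.

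That sign depended on WT SkM replicate 2. Without it the median was 0.01, 5 of the 10 members were below 0, and the mean summed share in E0del/+ was 0.921 times that of the remaining WT library. Without WT replicate 1, the library with Y-linked counts, the median was 0.77 and the share 1.93 times, and Vwf reached 1.62, with 8 members at an unadjusted p under 0.05 and the lowest edgeR adjusted p at 0.417. That fit has 1 WT library, and 1596 of its 13510 genes had an unadjusted p under 0.05. Within batch 1 the E0del/+ library had 0.987 times the summed CPM of WT and within batch 2 1.98 times. Batch 2 again set an E0del/+ library with Xist (278 CPM) against a WT library with little (0.343 CPM). With the batch as a block 1 gene was called, Eif2s3y, and 0 members, and 1 member had an unadjusted p under 0.05 (596 of all genes did). With Xist expression as a block 0 genes were called, and 1 member had an unadjusted p under 0.05 (306 of all genes did). WT SkM replicate 2 also had the lowest summed levels of leukocyte genes (16.5 CPM, against 33.6 to 133 in the other SkM libraries), mural genes (98.2 against 206 to 302), fibroblast genes (141 against 189 to 483), red cell genes (13.3 against 29.4 to 117), lymphatic genes (2.80 against 8.55 to 14.8) and adipocyte genes (8.69 against 147 to 1183). Their part in the low level of the members was not tested.

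**Figure D5:**
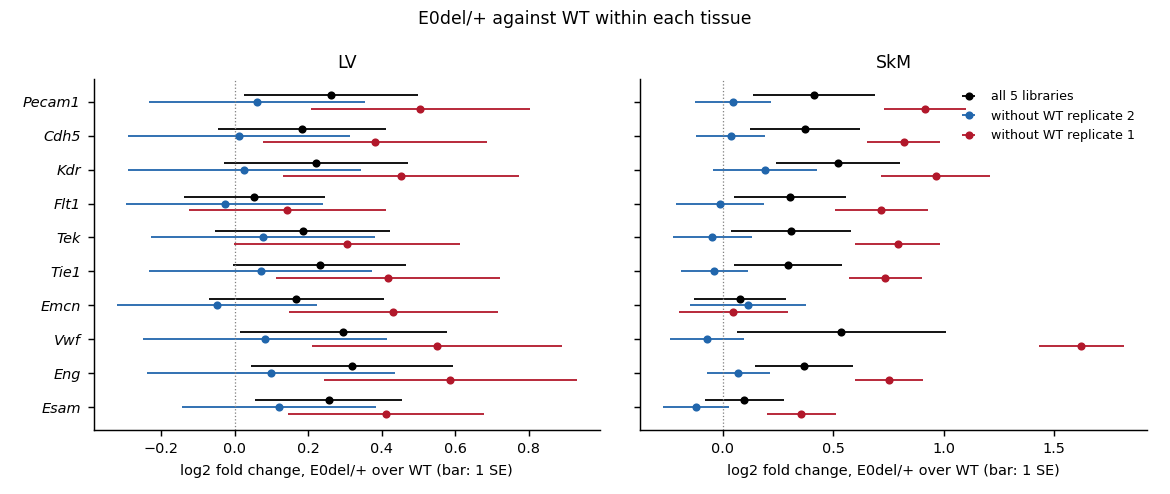
Log2 fold change of each endothelial marker gene in E0del/+ over WT in LV (left) and SkM (right), with bars of 1 SE, from all 5 libraries (black), without WT replicate 2 (blue) and without WT replicate 1 (red). The blue points lie near 0 in both tissues and the red points lie farthest to the right for every gene but Emcn in SkM.

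Among the other vascular lists in SkM, 0 genes passed the adjusted threshold, and the transcription factor Tcf15 had an unadjusted p under 0.05 (0.86, SE 0.32). The median was 0.13 for the endothelial transcription factors, 0.15 for the other pan-endothelial genes, 0.29 for the arterial genes, 0.24 for the capillary transport genes, 0.18 for the receptor partners and -0.04 for the ligands. It was 0.20 for the mural, 0.56 for the lymphatic, 0.90 for the endocardial and 0.08 for the venous and activated genes. Leukocyte (0.45), red cell (1.26), cardiomyocyte (1.10), adipocyte (0.43) and fibroblast (0.18) genes had medians above 0 as well. The median was -0.11 for fast fibre genes, with 2 of 8 above 0, and -0.003 for platelet genes, with 1 of 3 above 0. Of all genes tested, 49.2% were above 0.

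The genotype effect in SkM less that in LV was tested as an interaction over all 10 libraries with the mouse as a block. Of the members 0 passed the threshold, as did 0% of 14327 genes in edgeR, where 238 had an unadjusted p under 0.05, and DESeq2 called 0. The values of the members were between -0.17 (Esam, SE 0.25) and 0.46 (Vwf, SE 0.43) with a median of 0.17. Of the 10 members 8 were above 0, beside 52.2% of all genes tested. This too depended on single mice, as the median was 0.08 without WT replicate 2, with 6 of 10 above 0, and 0.39 without WT replicate 1, where Vwf was at 1.07 and 1 member had an unadjusted p under 0.05 (1533 of 14872 genes did). With 2 WT mice, each with a library that stood apart, an effect of genotype on the members and a difference between single mice cannot be told apart.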

How the data were processed

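Bulk RNA-Seq of poly-A RNA (Nextera XT libraries, which keep no strand) was taken from both tissues of each mouse, with groups as in the labels. The authors deposited a raw count and an RPKM value per gene and library, with exon coordinates (mm10) and summed exon lengths. The submitters' processing notes name STAR, DESeq2 and mm10, and the counting software is not given in the sources used here. The deposited RPKM values equal count over length and library total (largest difference 4.73e-11) and were used only for that check.

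Every test used the raw counts, in R 4.3.3 with edgeR 4.0.16 and limma 3.58.1 (filterByExpr, TMM, quasi-likelihood, Benjamini-Hochberg, threshold 0.05). LV and SkM were paired by mouse, since both came from the same animal. Genotypes were compared within each tissue with no covariate. The labels' batch tag equals the replicate number and so pairs WT with E0del/+ mice in batches 1 and 2, with correlations of deviations from the group means of 0.0222 and -0.168 in LV and of 0.462 and 0.286 in SkM, and between -0.115 and 0.116 for the tissues of a mouse. The deviations of 2 WT mice from their mean are equal and opposite. Both WT mice therefore give the same value, 0.116, and the values of the batches are not independent. The labels hold no age, and none was used in a fit. DESeq2 1.42.0 and the other alternatives are given in the closing section. CPM and TPM were computed from the counts. The edgeR fits were run first on simulated counts with known fold changes.

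The members and lists were chosen with earlier results of these data known. Named genes are the 10 members, the 3 genes of each vascular list with the highest mean TPM, and the 5 genes most like the members. Any list gene past the threshold in a genotype comparison was to be named too, and 0 were in the main edgeR fits. With the batch as a block, Ddx3y, Eif2s3y, Kdm5d and Uty of the sex list passed it in LV and Eif2s3y in SkM. Other genes are named after their values were seen. The lists were ligands, receptor partners, endothelial transcription factors, other pan-endothelial, capillary transport, arterial, venous and activated, endocardial, lymphatic and mural genes, and markers of platelets, leukocytes, red cells, fibroblasts, adipocytes, cardiomyocytes, fast fibres and sex, and 139 of 140 symbols matched, 7 through a RefSeq synonym (the files give Vegfd as Figf, Ackr1 as Darc and Adgrf5 as Gpr116). Replicate libraries of a group differed by a chi-square of 12.8 to 100 per degree of freedom, where counting noise alone gives 1.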

Additional observations from a re-analysis of the deposited data

Results flagged for a closer look

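The 5 libraries of each tissue and the 5 ratios of LV to SkM were searched for a value far from the other 4, for each endothelial marker gene, their sum and the summed markers of other cells, in 53 groups. In groups of this size chance alone gives about 1 such value in 20. Among the members 2 values were found. Vwf in SkM was at 13.2 CPM in WT replicate 2, with the other 4 libraries between 41.5 and 51.3 CPM. The ratio of Esam between LV and SkM was 7.87 in E0del/+ replicate 2, with the other mice between 4.13 and 5.13.

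Of the other cell markers 2 sums stood apart, both in the WT LV replicate 2 library. Fast fibre genes summed to 39096 CPM there, with the other LVs between 155 and 178 CPM. Adipocyte genes summed to 279 CPM, with the other LVs between 1.83 and 23.7 CPM.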

How the results depend on the processing

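All 10 endothelial marker genes stayed higher in LV than in SkM and past the threshold under each of the 12 alternatives run for that comparison, 1 of which (the 3 E0del/+ mice alone) was chosen after the data were seen. No member passed the threshold in a genotype comparison under any alternative. DESeq2's Wald test gives Emcn no adjusted p in LV.

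Counts of called genes moved as follows. For E0del/+ against WT in LV, 12 genes were called by the DESeq2 Wald test and 5 with the replicate block (batch), and leaving out 1 library gave 0 to 578. In SkM the replicate block gave 1. For the genotype effect in SkM minus that in LV, leaving out 1 mouse gave 0 to 155. Without the mouse as a replicate block, 8657 genes differed between LV and SkM, against 8255 with it.

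Signs changed as follows. When 1 library was left out, E0del/+ against WT in LV ran from -0.0694 to 0.14 for Flt1, -0.0516 to 0.33 for Tek and -0.0629 to 0.43 for Emcn. In SkM it ran from -0.0137 to 0.72 for Flt1, -0.0485 to 0.79 for Tek, -0.0396 to 0.74 for Tie1, -0.0730 to 1.62 for Vwf and -0.12 to 0.36 for Esam. The genotype effect in SkM minus that in LV ran from -0.0185 to 0.47 for Tek, -0.0102 to 0.29 for Tie1, -0.41 to 0.27 for Emcn, -0.0339 to 1.07 for Vwf, -0.0684 to 0.22 for Eng and -0.30 to 0.0111 for Esam. The value for Tagln, LV against SkM within mice, was 0.66 with total counts without TMM, 0.0475 with no filter on low counts, 0.0820 with at least 10 counts in every library, and -0.32 to 0.27 without 1 mouse, and that for Nr2f2 was 0.24 with total counts without TMM.

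The median ratio of the summed share of the members was 4.20 as CPM with TMM effective library sizes and 5.86 to 7.40 without 1 mouse. The mean percent was 0.160 in LV and 0.0243 in SkM as TPM (per length). As CPM after removing the 10 most abundant genes of either tissue, the result for the summed share of the members: mean percent in SkM was 0.0495. The ratio of E0del/+ mean over WT mean in SkM ran from 0.921 to 1.93 without 1 mouse.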
